A study of Mus musculus with 30 samples.

Results

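The 10 genes described here are Pecam1, Cdh5, Kdr, Tek, Emcn, Nfatc1, Npr3, Cldn5, Egfl7 and Mir126a, together with mature miR-126a-3p and miR-126a-5p. They were chosen by name, as widely used endothelial and endocardial genes plus the miRNA gene that lies inside Egfl7, and are 10 of 20842 genes measured on mRNA arrays and 2 of 1908 mature mouse miRNAs measured on miRNA arrays. Both mutant groups, aSHF and OFT-RV, carried Mef2c-AHF-Cre/+; Dgcr8 f/f. Both wild-type groups carried Dgcr8 f/+ with no Cre listed, so they differ from mutants in the Cre transgene as well as in the floxed alleles. The aSHF is the anterior second heart field, the progenitor tissue behind the heart tube, and OFT-RV is the outflow tract with the right ventricle. Mouse embryos were taken at embryonic day 9.5 with 19 to 21 somite pairs. Each array had a pool of embryos of 1 genotype, drawn from 5 or more litters. The sample titles do not say whether arrays of different tissue or array type shared embryos. There were 4 mutant and 4 wild-type mRNA arrays per tissue, and 4 and 4 miRNA arrays in aSHF but 3 and 3 in OFT-RV.

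Endothelial cells line blood vessels, and endocardial cells are the endothelium of the heart. Dgcr8 is the RNA-binding partner of Drosha, and together they cut miRNA hairpins out of primary transcripts before Dicer makes the mature miRNA. miR-126 is an miRNA of endothelial cells, made from an intron of Egfl7, and is known for sustaining VEGF signalling by lowering inhibitors such as Spred1 and Pik3r2. The Mef2c-AHF enhancer drives Cre in anterior second heart field progenitors and their descendants, which include heart muscle and part of the endocardium of the outflow tract and right ventricle. In dissected tissue, a lower value can come from fewer cells of a type or from less RNA per cell, and the arrays cannot tell these apart.

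The miR-126 sequences are shown because mature miR-126a-3p is the only one of the 4 miR-126 mature products that stood above array background on every array, and because the strands of this locus mirror each other. They are RefSeq sequences on GRCm38.p6, written 5′ to 3′. Capitals in the mature sequences mark the seed (bases 2 to 8), and capitals in the hairpin mark miR-126a-3p.
miR-126a-3p: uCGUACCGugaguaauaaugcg
miR-126b-5p: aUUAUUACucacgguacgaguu
miR-126b-3p: cGCGUACCaaaaguaauaaugug
Mir126a hairpin: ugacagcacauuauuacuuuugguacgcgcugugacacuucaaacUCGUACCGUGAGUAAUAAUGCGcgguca
The Mir126a hairpin lies at chr2:26591357-26591429 on the plus strand, within the span of Egfl7, and miR-126a-3p occupies chr2:26591402-26591423 in its 3′ arm. Mir126b is the overlapping hairpin on the minus strand, so miR-126b-5p pairs perfectly with miR-126a-3p over 19 bases of the 22. Of the 1679 mature names in the RefSeq table, no other shares the seed of miR-126a-3p. The array's deposited location for miR-126a-5p is chr2:26591365-26591385 on the plus strand. Deposited and RefSeq locations were identical for 1542 of 1603 mature miRNAs, which places the deposited coordinates on that build.

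The array values are deposited log2 intensities, with both tissues held together for each array type. Array medians spanned 7.47 to 7.54 in aSHF and 6.13 to 6.19 in OFT-RV on mRNA arrays, so the tissues do not share a scale and levels are compared between genotypes within a tissue. A change was called when its limma p-value, adjusted by Benjamini-Hochberg over all genes or all mature miRNAs tested, was under 0.05. Dgcr8, the targeted gene, averaged 7.70 in OFT-RV mutants and 8.11 in OFT-RV wild-types (change -0.41, SE 0.06, adjusted p = 0.00753, n = 4 pools each). In aSHF it averaged 10.22 in mutants and 10.34 in wild-types (change -0.12, SE 0.05, adjusted p = 0.979), which was not called. The Dgcr8 call in OFT-RV was lost when every probe set of the array was tested (adjusted p = 0.0570). Whether this probe set reads the floxed part of Dgcr8 was not determined, so these values are no full check of the deletion.

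The cell type labels were checked against 9 lists of marker genes. In wild-types 8 of 8 cardiomyocyte markers were called as ranking higher in OFT-RV than in aSHF, against 39.2% of all genes. Of the second heart field progenitor markers 5 of 6 were called as ranking lower, against 38.1% of all genes. In OFT-RV the fourth mutant pool was the highest of the 8 pools for 3 of 5 cushion mesenchyme genes. Lum, an extracellular matrix proteoglycan, measured 8.92 in that pool, against 4.27 to 4.56 in the other 3 mutant pools and 4.23 to 4.43 in wild-type pools. Postn, the matrix protein periostin, measured 9.48 there, against 5.38 to 5.53 in the other mutant pools and 5.44 to 5.75 in wild-type pools. Col1a1, a collagen chain, measured 8.35 there, against 7.51 to 7.76 in the other mutant pools and 7.41 to 7.85 in wild-type pools. The other 2 genes lay within the range of the other 7 pools. Sox9 measured 7.32 in the fourth mutant pool, against 7.07 to 7.32, and Twist1 7.67, against 7.49 to 8.13. The summed level of the 5 genes, a mean of their log2 values, was 8.35 in that pool and 6.38 to 6.63 in the other 7. Each OFT-RV gene result below is therefore given also without this pool where its value moved by over 1.5 times. Primitive erythroid markers averaged higher in mutants for 9 of 9 genes in aSHF, with summed levels of 9.88 to 10.20 in mutants and 9.60 to 10.06 in wild-types, and for 8 of 9 in OFT-RV, with 9.09 to 9.40 in mutants and 9.05 to 9.27 in wild-types. The progenitor markers were the only list of the 9 whose summed level separated by genotype in aSHF, at 10.173 to 10.216 in mutants and 10.059 to 10.170 in wild-types, with 5 of 6 genes higher in mutants. In OFT-RV no list separated. No marker was called in mutants, and the part of the blood, progenitor or mesenchyme markers in any result below was not tested.

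The 9 protein-coding members differed little between genotypes in aSHF. None of the 10 genes was called there, against 0.178% of all genes (37 of 20842, all of them higher in mutants). At an unadjusted p under 0.05 there was 1 member, Mir126a, against 2.66% of all genes. The 9 protein-coding members had changes of -0.056 to 0.054 with a median of -0.018, against a median of 0.012 over all genes, and 2 of the 9 were higher in mutants, against 57.9% of all genes. Their 95% intervals all lay between -0.18 and 0.17 on the log2 scale. With any 1 pool left out, the 9 changes lay between -0.091 and 0.075.

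**Figure D1:**
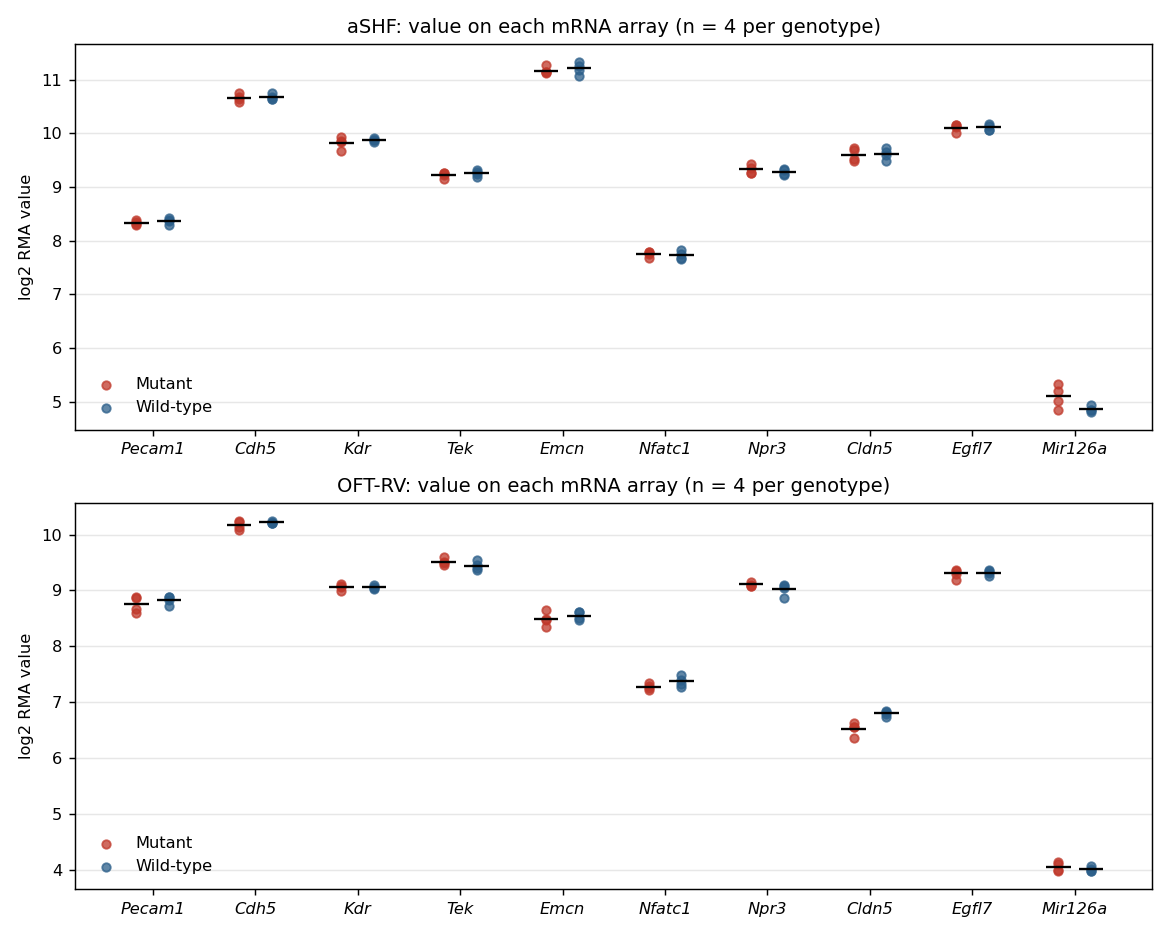
Log2 value of each gene on each mRNA array (points) with the group mean (bar), in aSHF (upper panel) and OFT-RV (lower panel), mutant left of wild-type, n = 4 pools per group. Cldn5 in OFT-RV is the only gene whose mutant and wild-type pools do not overlap. Levels of different genes come from different probe sets and are not comparable.

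Among the receptors and junction proteins of endothelial cells in aSHF, Kdr, the main VEGF receptor, measured 9.93, 9.87, 9.83 and 9.67 in mutant pools, against 9.88, 9.91, 9.88 and 9.84 in wild-type pools. The groups overlapped, with both the lowest and the highest pool mutant ones, and the change was -0.056 (SE 0.06, adjusted p = 0.979). Without the fourth mutant pool it was -0.0033. Cdh5, the VE-cadherin of endothelial junctions, averaged 10.66 ± 0.07 in mutants and 10.68 ± 0.05 in wild-types (SD, n = 4 each). Tek, the angiopoietin receptor, changed by -0.030 and Pecam1, an adhesion molecule of endothelial junctions, by -0.030, each with an SE of 0.05 or less. Neither was called. Cldn5, the tight junction protein claudin-5, measured 9.52, 9.72, 9.69 and 9.49 in aSHF mutant pools, against 9.60, 9.74, 9.49 and 9.66 in wild-type pools. The 2 sets of Cldn5 values interleaved, and the change was -0.015 (SE 0.07, adjusted p = 0.991).

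Of the endocardial members in aSHF, Nfatc1, a transcription factor needed for valve formation, changed by 0.027 and Npr3, the natriuretic peptide clearance receptor, by 0.054. Emcn, the sialomucin endomucin, changed by -0.045. Egfl7, a secreted protein of endothelial cells and the host of Mir126a, had the smallest change of the 10, at -0.0026 (SE 0.05, adjusted p = 0.999). Egfl7 pools measured 10.01, 10.15, 10.15 and 10.12 in mutants, against 10.07, 10.17, 10.14 and 10.06 in wild-types, fully interleaved.

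In OFT-RV, Cldn5 was the member with the clearest difference, and it was lower in mutants. Cldn5 measured 6.56, 6.55, 6.62 and 6.37 in mutant pools, against 6.83, 6.84, 6.74 and 6.79 in wild-type pools. Every mutant pool lay below every wild-type pool, and the change was -0.27 (SE 0.06, 95% interval -0.40 to -0.15), or 0.827-fold. It did not pass over all genes (adjusted p = 0.114). The exact two-sided permutation test over the 8 pools gave p = 0.0286, the smallest value 4 against 4 pools allow. Over all alternatives run, the adjusted p stayed between 0.0950 and 0.323. Without the fourth mutant pool, the lowest, the change was -0.22 (SE 0.05, adjusted p = 0.240). Complete separation of the groups occurred for 3.59% of all genes in this tissue, and for 1 of the 10 members. Cldn5 lies on chromosome 16 with Dgcr8, with 8 protein-coding genes between them. Whether this position has any part in the Cldn5 change was not tested.

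None of the 10 genes was called in OFT-RV, against 0.446% of all genes (93 of 20842). At an unadjusted p under 0.05 there was 1 member, Cldn5, against 5.83% of all genes. The 9 protein-coding members had a median change of -0.050, against -0.011 over all genes, and 3 of the 9 were higher in mutants, against 42.9% of all genes. Without the fourth mutant pool the median of the 9 was -0.014, against -0.0090 over all genes. Pecam1 measured 8.88, 8.87, 8.68 and 8.59 in mutant pools, against 8.88, 8.82, 8.72 and 8.89 in wild-type pools. Its 2 lowest values were mutant ones, and the change was -0.075 (SE 0.07). Without the fourth mutant pool it was -0.021.

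The fourth mutant pool was also the lowest of the 8 OFT-RV pools for Cdh5 and Emcn. Cdh5 measured 10.24, 10.23, 10.13 and 10.08 in mutant pools, against 10.21, 10.21, 10.25 and 10.21 in wild-type pools. Its change was -0.050 (SE 0.05), and -0.019 without the fourth pool. Emcn measured 8.65, 8.49, 8.48 and 8.34 in mutant pools, against 8.61, 8.50, 8.48 and 8.61 in wild-type pools. The Emcn change was -0.060 (SE 0.07), and -0.012 without the fourth pool. The mean log2 value of the 9 protein-coding members was 8.71, 8.74, 8.69 and 8.62 in mutant pools, against 8.74, 8.72, 8.73 and 8.74 in wild-type pools, with the lowest value in the fourth mutant pool, the one with high Lum and Postn.

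The remaining OFT-RV members overlapped between genotypes. Kdr changed by 0.0031 (SE 0.05) and Egfl7 by -0.015 (SE 0.05). Tek, at 0.071 (SE 0.05), and Npr3, at 0.084 (SE 0.06), averaged higher in mutants without being called. Leaving out 1 pool at a time moved Tek between 0.044 and 0.11, and Npr3 between 0.032, without the first wild-type pool, and 0.11. Nfatc1 measured 7.21, 7.35, 7.30 and 7.25 in mutant pools, against 7.27, 7.32, 7.49 and 7.40 in wild-type pools. The 2 highest Nfatc1 values were wild-type ones, and the change was -0.094 (SE 0.06, adjusted p = 0.953).

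**Figure D2:**
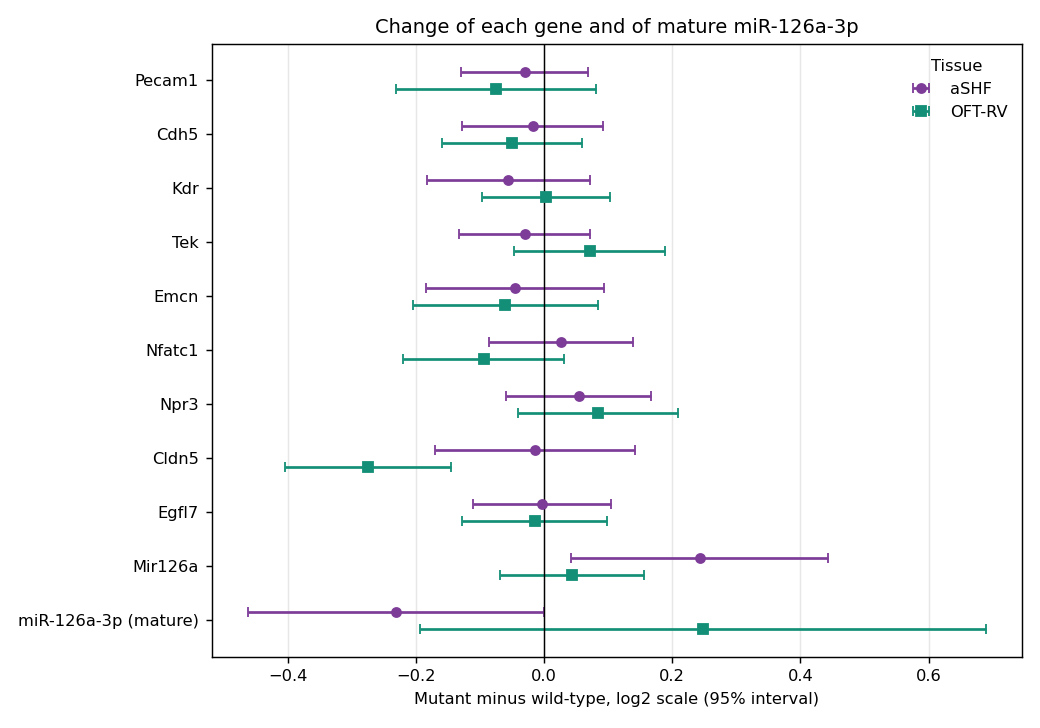
Mutant minus wild-type change on the log2 scale with its 95% interval from limma, in aSHF (circles) and OFT-RV (squares), for the 10 genes and mature miR-126a-3p. The intervals of Cldn5 in OFT-RV (-0.40 to -0.15) and of Mir126a in aSHF (0.04 to 0.44) leave out 0, but neither change passed the adjusted threshold.

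The change in OFT-RV was set against the change in aSHF with an interaction term. None of the 10 genes was called, against 0.211% of all genes (44 of 20842). At an unadjusted p under 0.05 there was 1 member, Cldn5, against 5.08% of all genes. The Cldn5 change was lower in OFT-RV than in aSHF by an estimate of -0.26 (SE 0.09, 95% interval -0.46 to -0.06, adjusted p = 0.897). Both estimates of the Cldn5 change came from separate arrays, 4 and 4 per tissue.

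Mir126a is read on the mRNA arrays by a probe set against the miRNA gene, which can take up primary transcript. In aSHF it measured 5.20, 4.85, 5.02 and 5.33 in mutant pools, against 4.85, 4.84, 4.80 and 4.93 in wild-type pools. Of the mutant pools, 3 lay above every wild-type pool and 1 among them, and the change was 0.24 (SE 0.09, adjusted p = 0.979). The exact two-sided permutation test gave p = 0.0571. On the arrays these values ranked low, at percentiles 5.75 to 13.3 of all probe sets in mutants and 4.98 to 6.49 in wild-types. Leaving out 1 pool at a time moved the change between 0.17 and 0.33, and no setting called it. In OFT-RV Mir126a measured 3.99, 4.10, 3.999 and 4.14 in mutant pools, against 3.97, 3.99, 4.02 and 4.07 in wild-type pools. The values interleaved, and the change was 0.044 (SE 0.05, adjusted p = 0.984), or 0.016 without the fourth mutant pool. The interaction estimate was -0.20 (SE 0.11, adjusted p = 0.897).

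Mir126a was not among the miRNA genes whose rise was called. Of the 321 miRNA genes on the mRNA arrays, 11.2% were called in aSHF and 23.4% in OFT-RV. Ranked by change among those 321, Mir126a was number 70 in aSHF and number 163 in OFT-RV. The median change of the 321 was 0.085 in aSHF and 0.047 in OFT-RV, close to the value of Mir126a in OFT-RV. The largest changes were 2.13 in aSHF and 5.07 in OFT-RV.

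**Figure D3:**
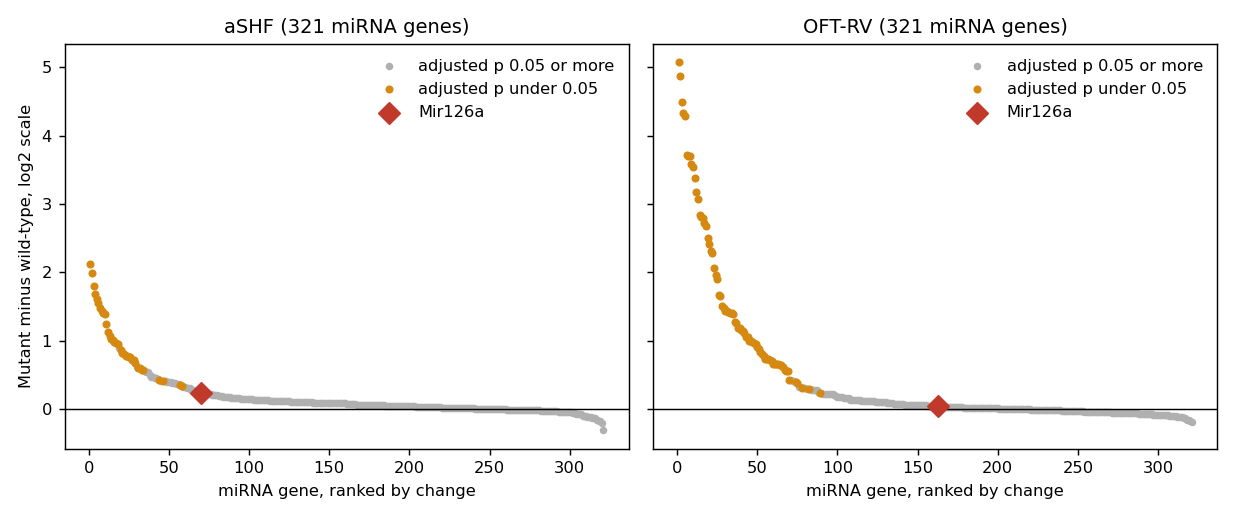
Mutant minus wild-type change (log2 scale) of each of 321 miRNA genes on the mRNA arrays, ranked from highest to lowest, in aSHF (left) and OFT-RV (right). Mir126a (diamond) ranks number 70 in aSHF and number 163 in OFT-RV, outside the genes that passed the adjusted threshold.

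Mature miR-126a-3p was readily detected and had no called change in either tissue. In aSHF it measured 7.42, 7.47, 7.37 and 7.21 in mutant pools, against 7.48, 7.82, 7.50 and 7.60 in wild-type pools. Every mutant pool lay below every wild-type pool, with the highest mutant and the lowest wild-type pool almost equal. The change was -0.23 (SE 0.10, 95% interval -0.46 to 0.0002, adjusted p = 0.809), and the exact two-sided permutation test gave p = 0.0286, the smallest it can give. Complete separation occurred for 3.93% of all mature miRNAs in aSHF. No mature miRNA was called by limma in that tissue (0.0%), and 114 of 1908 (5.97%) had an unadjusted p under 0.05. With mature miRNAs near array background left out, 36 of the 292 that remained did.

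In OFT-RV miR-126a-3p averaged higher in mutants, without being called. It measured 7.70, 7.25 and 7.09 in mutant pools, against 7.34, 7.07 and 6.88 in wild-type pools. The groups overlapped, with the highest value a mutant one and the lowest a wild-type one. The change was 0.25 (SE 0.19, 95% interval -0.19 to 0.69, adjusted p = 0.789). Without the first mutant pool, the highest, it was 0.071, and without any other 1 pool 0.14 to 0.38. The exact permutation p was 0.400, where 3 against 3 pools can give no less than 0.100. In this tissue 7 of 1908 mature miRNAs were called (0.367%), all lower in mutants. The change differed between the tissues by an estimate of 0.48 (OFT-RV minus aSHF, SE 0.21, adjusted p = 0.776 in limma). That estimate was 0.30 without the first OFT-RV mutant pool and 0.95 with all arrays quantile normalized together, uncalled in both. Its unadjusted p was under 0.05, as for 6.03% of all mature miRNAs, and 0.157% were called. With mature miRNAs near array background left out, 40 of the 272 that remained had an unadjusted p under 0.05 for this difference, and 2 were called.

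**Figure D4:**
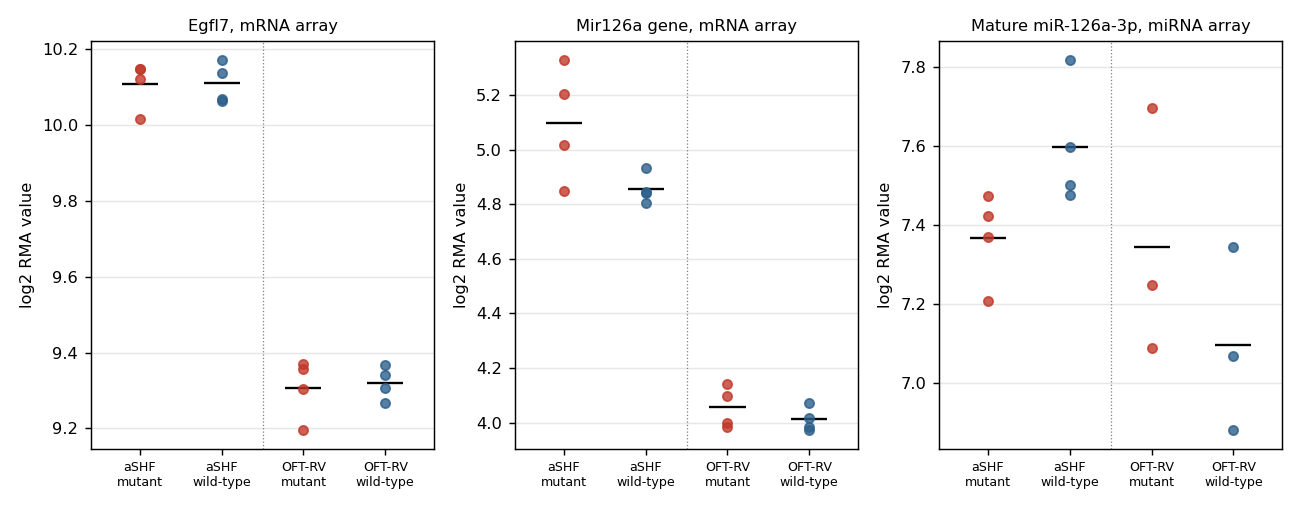
Log2 value on each array (points) and group mean (bar) of Egfl7 and Mir126a on mRNA arrays and of mature miR-126a-3p on miRNA arrays, mutant (red) left of wild-type (blue) within each tissue. The tissues do not share a scale, so heights compare only within a tissue. Egfl7 interleaves in both tissues, and miR-126a-3p in aSHF separates by genotype by a narrow margin.

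The other products of the locus gave no usable level. miR-126a-5p, the product of the 5′ arm, averaged 0.70 ± 0.14 in aSHF mutants and 0.56 ± 0.08 in aSHF wild-types (SD, n = 4 each). In OFT-RV it averaged 0.87 ± 0.05 in mutants and 0.85 ± 0.06 in wild-types (SD, n = 3 each). It was above the 95th percentile of the 95 background features on no array. That percentile stood at 2.66 to 2.91 on aSHF arrays and 0.98 to 1.08 on OFT-RV arrays. miR-126b-5p was likewise above it on no array, and miR-126b-3p on 1 OFT-RV wild-type array. The miR-126a precursor feature, at 0.90 to 1.25 in OFT-RV mutants and 0.98 to 1.09 in OFT-RV wild-types, passed it on 1 mutant and 2 wild-type arrays and on no aSHF array.

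Textbook targets of miR-126 were examined as a list of 13 genes, all measured. None was called in either tissue, and the median change was 0.028 in aSHF and -0.0087 in OFT-RV, against 0.012 and -0.011 over all genes. Without the fourth OFT-RV mutant pool it was -0.018 there. Cxcl12, a chemokine that attracts endothelial and other progenitor cells, averaged 8.16 ± 0.06 in OFT-RV mutants and 7.93 ± 0.16 in OFT-RV wild-types (SD, n = 4 each). The Cxcl12 groups did not overlap, as for 3.59% of all genes in this tissue and 1 of the 13 targets, and the change of 0.23 was not called (adjusted p = 0.523). In aSHF Cxcl12 averaged 10.43 in mutants and 10.54 in wild-types, a change of -0.12, and the difference between the tissues was 0.35 (adjusted p = 0.592). Plk2, a stress-responsive kinase, changed by -0.14 in each tissue. Slc7a5, an amino acid transporter, had 0.070 in aSHF, and Rgs16, a regulator of G-protein signalling, -0.084 in OFT-RV. Between the tissues Vegfa differed by -0.12 and Slc7a5 by -0.11, uncalled.

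Ligands and receptors of the VEGF, angiopoietin and apelin pathways, 15 genes, had no called member in either tissue. Angpt1, the ligand of Tek, averaged 8.11 ± 0.18 in OFT-RV mutants and 8.41 ± 0.08 in OFT-RV wild-types (SD, n = 4 each), a change of -0.30 (adjusted p = 0.348). Leaving out 1 pool at a time moved the OFT-RV Angpt1 change between -0.38 and -0.24. It was called in 1 of those 8 fits, without the third mutant pool (adjusted p = 0.0468). Without the fourth mutant pool it was -0.27 (adjusted p = 0.722). In aSHF Angpt1 averaged 7.14 ± 0.21 in mutants and 7.39 ± 0.15 in wild-types, a change of -0.26 (adjusted p = 0.979). Apln, the peptide apelin, was 0.17 higher in aSHF mutants and 0.16 lower in OFT-RV mutants on the log2 scale, and the difference between the tissues of -0.33 was not called (adjusted p = 0.509). Nrp1, a VEGF co-receptor, changed by -0.15 in aSHF, and by 0.19 more in OFT-RV than there. Eng, the TGF-beta co-receptor endoglin, changed by -0.12 in OFT-RV, or -0.076 without the fourth mutant pool. The 15 genes had median changes of 0.0092 in aSHF and -0.025 in OFT-RV, or -0.016 without the fourth mutant pool.

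Endothelial transcription factors, 18 genes, had no called member, with medians of 0.0092 in aSHF and -0.036 in OFT-RV, or -0.018 without the fourth mutant pool. The smallest p-values in aSHF belonged to Fli1 (-0.12), an ETS factor, Tal1 (0.11), a factor of blood and endothelial fate, and Mecom (-0.14), a zinc finger factor. In OFT-RV they belonged to the SOX factor Sox18 (-0.083), the ETS factor Erg (-0.051, or -0.030 without the fourth mutant pool) and the forkhead factor Foxc1 (-0.086). Between the tissues they belonged to Tal1 (-0.15), Sox18 (-0.13) and Fli1 (0.10). The 18 other pan-endothelial genes, all measured, gave medians of 0.0056 in aSHF and -0.016 in OFT-RV. The sialomucin Cd34 (-0.14), the roundabout receptor Robo4 (0.084) and the matrix protein Mmrn2 (0.051) led that list by p in aSHF. The C-type lectin Clec14a (-0.17), the receptor kinase Tie1 (-0.11) and the adhesion G-protein-coupled receptor Adgrf5 (0.063) led it in OFT-RV, and Clec14a (-0.14), Tie1 (-0.11) and Sox18 led it between the tissues.

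Endocardial and Notch genes, 18 in number and all measured, also had no called member and had medians of 0.0042 in aSHF and -0.031 in OFT-RV. Nrg1, the endocardial ligand of trabeculation, averaged 8.63 ± 0.05 in aSHF mutants and 8.54 ± 0.04 in aSHF wild-types (SD, n = 4 each). Its groups did not overlap, and neither did those of Tmem100, an endothelial membrane protein downstream of BMP signalling, at 8.14 ± 0.12 in mutants and 8.25 ± 0.02 in wild-types. Complete separation occurred for 1.62% of all genes in aSHF and for 2 of these 18. Tmem100 was lower in OFT-RV mutants too (-0.16, adjusted p = 0.767), with overlapping groups. Edn1, the peptide endothelin-1, had a change of 0.087 in aSHF. In OFT-RV the change was -0.12 for Adgrg6, an adhesion G-protein-coupled receptor, and 0.12 for Cgnl1, a cell junction protein. Between the tissues Cgnl1 differed by 0.13, Notch4 by -0.12 and Heg1 by 0.11. The neighbours of Egfl7 on chromosome 2, Agpat2 and Notch1, and its paralog Egfl8 changed by -0.021, 0.018 and 0.012 in aSHF and by -0.14, -0.035 and -0.031 in OFT-RV. The differences of Agpat2, Notch1 and Egfl8 between the tissues were -0.12, -0.052 and -0.043, and none was called.

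A list of 12 other mature miRNAs known from endothelial cells, most of them also made elsewhere, shows how miR-126a-3p compared. None of the 12 was called in either tissue. In OFT-RV 10 of 12 were lower in mutants, with a median of -0.38 against -0.0044 over all mature miRNAs. In aSHF 9 of 12 were lower, with a median of -0.13 against -0.0091. Most mature miRNAs lay near background. With dim ones left out, the 9 that remained in OFT-RV had a median of -0.48 against -0.033 over 502 mature miRNAs, and the 6 that remained in aSHF -0.28 against -0.059 over 292. miR-24-3p averaged 7.10 ± 0.16 in OFT-RV mutants and 7.56 ± 0.14 in OFT-RV wild-types (SD, n = 3 each), a change of -0.46 (adjusted p = 0.216). miR-23b-3p changed by -0.53 and miR-139-5p by -0.58 in OFT-RV. All 3 had groups that did not overlap, as did 12.9% of all mature miRNAs there. With all 4 groups in 1 fit, miR-24-3p and miR-23b-3p passed in OFT-RV (adjusted p = 0.0378 each). That fit called 38 of 1908 mature miRNAs in OFT-RV, against 7 with OFT-RV fitted alone. In aSHF the smallest p-values belonged to miR-24-3p (-0.29), miR-27b-3p (-0.79) and miR-27a-3p (-0.56). Between the tissues they belonged to miR-92a-3p (-0.41), miR-23b-3p (-0.36) and miR-139-5p (-0.51), uncalled.

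Wild-type pools were also compared between tissues by the rank of each gene within its own array, tested as a normal score. Of the 10 genes, 9 differed in rank between OFT-RV and aSHF, but so did 77.3% of all genes, and array handling and tissue cannot be told apart. Of all genes, 39.2% ranked higher and 38.1% lower in OFT-RV, against 7 and 2 of the members. Pecam1 stood at percentiles 82.8 to 84.0 in OFT-RV and 61.7 to 63.4 in aSHF (adjusted p = 7.23e-10). Tek averaged percentile 88.6 in OFT-RV and 74.5 in aSHF, Npr3 percentile 85.3 in OFT-RV and 74.8 in aSHF, and Nfatc1 percentile 67.1 in OFT-RV and 53.3 in aSHF. Smaller shifts the same way were found for Cdh5, Kdr and Egfl7, the last at 87.7 in OFT-RV and 84.6 in aSHF.

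Emcn and Cldn5 were the 2 members that ranked lower in OFT-RV. Emcn stood at percentiles 80.4 to 81.3 in OFT-RV and 92.3 to 93.5 in aSHF (adjusted p = 3.66e-09). Cldn5 stood at percentiles 58.5 to 59.8 in OFT-RV and 77.1 to 80.7 in aSHF (adjusted p = 1.91e-08). Mir126a averaged 4.85 in OFT-RV and 5.66 in aSHF and was not called (adjusted p = 0.109), though it was without the fourth OFT-RV wild-type pool (adjusted p = 0.0147). miR-126a-3p averaged percentile 98.3 in OFT-RV and 97.3 in aSHF (adjusted p = 0.250, against 3.3% of mature miRNAs called). It was called with dim miRNAs left out (adjusted p = 0.00287), as were 177 of the 276 mature miRNAs that remained. With all arrays quantile normalized together it was also called (adjusted p = 0.00258), as were 300 of 1908 mature miRNAs.

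**Figure D5:**
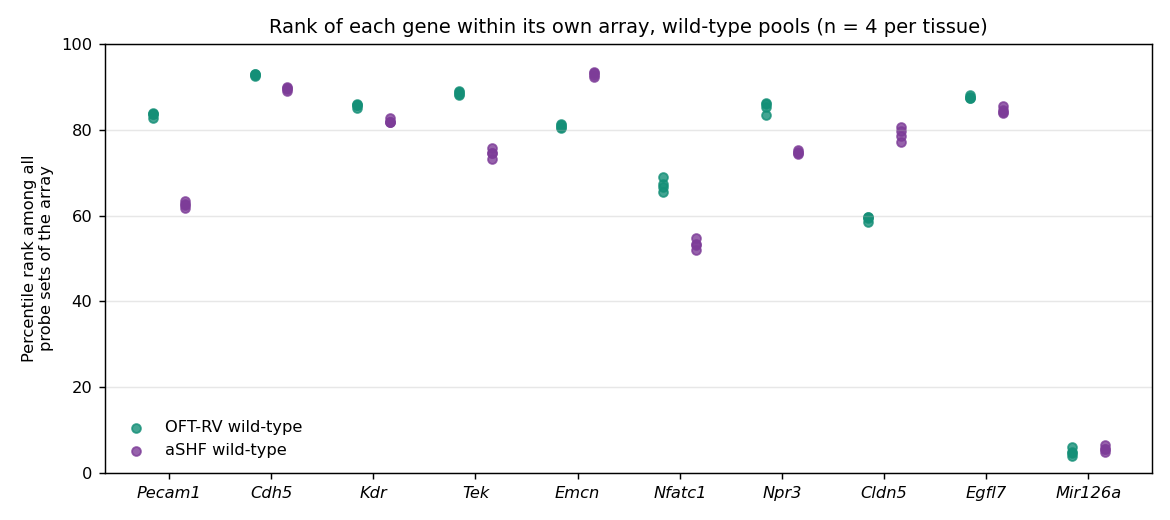
Percentile rank of each gene among all 35556 probe sets of its own array, in the wild-type pools of OFT-RV (left in each pair) and aSHF (right), n = 4 pools per tissue. Emcn and Cldn5 rank lower in OFT-RV, 7 genes rank higher, and Mir126a overlaps.

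The lists ranked in both directions between the tissues. Genes are named here where their rank difference was called, as it was for 77.3% of all genes. Called were 15 of 15 VEGF and angiopoietin genes, 14 of 18 transcription factors and 17 of 18 other pan-endothelial genes. So were 16 of 18 endocardial and Notch genes and 12 of 13 miR-126 targets. Of the VEGF and angiopoietin list, Angpt1, Nrp1, Tie1, Nrp2, Vegfa, Flt4, Eng, Acvrl1, Vegfc and Flt1 ranked higher in OFT-RV, and Aplnr, Apln, Pgf, Angpt2 and Vegfb lower. Among transcription factors, Sox7, Klf2, Gata2 and Tal1 ranked higher, and Fli1, Lmo2, Foxc1, Sox17, Sox18, Ets1, Foxc2, Elk3, Mecom and Ets2 lower. Of the other pan-endothelial genes, Icam2, Arhgap29, Rasip1, Adgrf5, Ramp2, Tspan18, Ecscr, Tie1, Cd93, Clec14a, Mmrn2, Robo4 and Plvap ranked higher, and Sox18, Myct1, Esam and Cd34 lower. Adgrg6, Hey2, Cgnl1, Nrg1, Hapln1, Tgfb1 and Notch1 of the endocardial and Notch list ranked higher, and Hes1, Edn1, Jag1, Hey1, Notch4, Smad6, Dll4, Smad7 and Tmem100 lower. The Notch1 call was lost without any 1 of 4 pools (adjusted p = 0.0506 to 0.0705). Of the miR-126 targets, Vcam1, Plk2, Vegfa, Adam9 and Hoxa9 ranked higher, and Spred1, Dlk1, Crk, Slc7a5, Cxcl12, Pik3r2 and Irs1 lower. Egfl8 ranked higher and Agpat2 was not called. Of the 12 other endothelial miRNAs only miR-23a-3p was called (adjusted p = 0.0337, higher in OFT-RV), and leaving out any 1 pool ended that call. With dim miRNAs left out 5 of the 6 that remained were called, against 177 of all 276 mature miRNAs that remained. With all arrays quantile normalized together 5 of 12 were called, against 300 of all 1908. miR-24-3p was called in each case (adjusted p = 0.000175 and 0.000124).

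Pool-to-pool variation within groups was described with group means subtracted. Over 16 mRNA arrays the 9 protein-coding members did not vary as 1 block. The correlation of a member with the mean of the other 8 ranged from r = -0.26 for Egfl7 to r = 0.48 for Cdh5. Pecam1 and Emcn (r = 0.73), Pecam1 and Cdh5 (r = 0.62) and Kdr and Tek (r = 0.61) were the closest pairs. Egfl7 and Mir126a had r = -0.27. The genes most like the mean of the 9 were Tbccd1 (r = 0.87), Amph (r = 0.87), Pole3 (r = 0.85), Ankrd44 (r = 0.84) and 2310033P09Rik (r = 0.84), and Mir126a had r = -0.38. Over 14 miRNA arrays miR-126a-3p was most like miR-758-3p (r = 0.89), miR-30a-5p (r = 0.85) and miR-19b-2-5p (r = 0.83). These points share array, pool and normalization, and the values are descriptions across few arrays. The closest genes and miRNAs were picked as the highest of 20842 genes and of 1908 mature miRNAs, and that choice alone raises their r.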

How the data were processed

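RNA from pooled tissue was hybridized to Affymetrix mRNA and miRNA arrays, 1 pool per array. The deposited values are log2 intensities, with both tissues held together for each array type. The submitters' processing notes name RMA and the package oligo. The authors' deposited tables of fold changes and p-values named the probe sets: 20889 gene symbols were matched to 1 of 35556 probe sets by mean and change within 1e-06. Of these, 45 sharing a probe set and 2 repeated listings were left out, which left 20842 genes, and the 30 columns that match no sample label were not used.

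Mutant was compared with wild-type in each tissue with limma 3.58.1 in R 4.3.3 (lmFit and eBayes, two-sided, Benjamini-Hochberg over all named features). The difference between tissues used an interaction term, and wild-type tissues were compared by the normal score of ranks within an array. Exact permutation tests were run for each member. The fits were also run on simulated arrays with known changes added, where every value was drawn independently. Such data cannot show effects shared by the genes of an array or pool. The number of pools limits the precision. Members and lists were chosen with earlier results of these data known, and the named genes are all members, list genes that passed a test, the 3 smallest p-values per list and comparison, and the closest correlates. Alternatives are given in the closing section.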

Additional observations from a re-analysis of the deposited data

Results flagged for a closer look

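In 52 sets of 4 arrays (members and miR-126 features within 1 group), 3 had a pool whose gap to the others exceeded Dixon's 95% critical value, where chance gives about 1 in 20. Cdh5 in the third OFT-RV wild-type pool measured 10.25 (10.2477), against 10.21 in the other 3. Emcn in the first aSHF mutant pool measured 11.27 (11.2739), against 11.13 to 11.14 in the other 3. Npr3 in the first OFT-RV mutant pool measured 9.16 (9.1551), against 9.09 to 9.10 in the other 3. None of these genes was called in any mutant comparison.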

How the results depend on the processing

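None of the 10 genes or of miR-126a-3p was called in a mutant comparison, or in the difference between tissues, under any alternative run. The counts behind those statements moved more. With dim features left out, the calls were 14 for aSHF genes (37 as reported), 54 for OFT-RV genes (93), 22 for the gene difference between tissues (44), 9934 for wild-type gene ranks (16121) and 177 for wild-type miRNA ranks (63). With every feature of the array tested, they were 21 for aSHF genes, 29 for OFT-RV miRNAs (7), 22 for the miRNA difference (3), 25706 for gene ranks and 432 for miRNA ranks. Array weights gave 60 aSHF genes, all 4 groups in 1 fit gave 38 OFT-RV miRNAs, and joint quantile normalization gave 8 for the miRNA difference and 300 for wild-type miRNA ranks. Leaving out 1 pool at a time gave 19 to 43 (aSHF genes, lowest without the third or the fourth wild-type pool), 77 to 88 (OFT-RV genes), 0 to 2 (aSHF miRNAs, 2 without the second mutant pool), 1 to 9 (OFT-RV miRNAs, 1 without any 1 wild-type pool and 3 without the second mutant pool), 36 to 44 (gene difference), 1 to 8 (miRNA difference), 15471 to 15992 (gene ranks) and 11 to 81 (wild-type miRNA ranks, 34 or fewer without any 1 aSHF pool). Changes near 0 turned sign: with array weights, aSHF Cldn5 (0.063), Egfl7 (0.022) and Nfatc1 (-0.024) and the Emcn difference (0.032); with joint quantile normalization, the Npr3 difference (-0.0077). Leaving out 1 pool, ranges crossed 0 in aSHF for Agpat2 (-0.068 to 0.033), Cdh5 (-0.048 to 0.0084), Cldn5 (-0.059 to 0.024), Egfl7 (-0.018 to 0.028), Egfl8 (-0.036 to 0.073), Notch1 (-0.0029 to 0.058) and miR-126b-3p (-0.15 to 0.020). They did so in OFT-RV for Egfl7 (-0.036 to 0.022), Egfl8 (-0.079 to 0.0099), Kdr (-0.015 to 0.025) and miR-126a-5p (-0.0073 to 0.055), and for the differences of Egfl7 (-0.043 to 0.025), Egfl8 (-0.10 to 0.0048), Emcn (-0.068 to 0.034), Npr3 (-0.022 to 0.061) and Pecam1 (-0.085 to 0.0099), and for the rank of miR-126b-3p (-0.51 to 0.46). Of the 105 named mutant changes and differences, none called except Dgcr8 in OFT-RV, 16 had such a range across 0, and 51 others moved by over 1.5 times without some 1 pool. The cause was not tested. The sample titles link same-numbered mutant and wild-type pools by that number alone, and whether they were handled together was not tested. The correlation of their deviations was -0.09 to 0.67 in aSHF and 0.02 to 0.24 in OFT-RV on mRNA arrays. It was 0.01 to 0.20 and -0.08 to 0.16 on miRNA arrays, and no more than 2 of 4 pools correlated best with their own number. A replicate block gave 51 and 95 gene calls and 0 and 9 miRNA calls in aSHF and OFT-RV, and 49 and 3 for the differences. Genes with an unadjusted limma p under 0.05 rose with that block from 555 to 1721 in aSHF and from 1216 to 1446 in OFT-RV. On the miRNA arrays, features near background, among them miR-126a-5p, cannot show a fall, and small differences between their values were not interpreted.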
